A study of Mus musculus with 24 samples.

Results

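Wnt ligands are secreted, lipid-modified glycoproteins, and 10 of the 19 Wnt ligand symbols in the deposited tables were followed here across mouse colorectal tumors and normal colorectal tissue. The 10 were taken by symbol (Wnt2, Wnt2b, Wnt3, Wnt4, Wnt5a, Wnt5b, Wnt6, Wnt9a, Wnt10a and Wnt11), and each was found among the 24346 symbols of all 24 tables. All libraries carry the treatment label AOM/DSS. Azoxymethane (AOM) is a carcinogen, dextran sulfate sodium (DSS) irritates the colon lining, and the combination gives rise to colon tumors. The labels give each library a tissue (tumor or normal), a genotype (c-MAF_KO, here KO, or WT, wild type) and a title group. Under the KO label, KO-1-hetero, KO-8-hetero and also KO-8-homo each held 3 tumor libraries. The titles give hetero or homo beside ko, read here as heterozygous and homozygous knockout. Comparisons by the KO label pool both. Under the WT label, WT-young held 4 tumor libraries, while WT-old held 1. Each of the 5 groups had 2 normal libraries, so that 9 KO and 5 WT tumors and 6 KO and 4 WT normal libraries carried the genotype labels. Ages beyond the words young and old, the animals, the cells in which Maf was targeted and the meaning of the leading numbers are not given in the sources used here.

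As background, a Wnt ligand is acylated by Porcn, carried to the cell surface by Wls and bound there by a Frizzled receptor. With Lrp5 or Lrp6 as co-receptor it stabilises beta-catenin, which acts with TCF/LEF factors on target genes such as Axin2. Other ligands, of which Wnt5a is the best known, act mainly through Ror or Ryk receptors and the planar polarity proteins. In the gut, Wnt3 is known as an epithelial ligand made by Paneth cells, and Wnt2b and Wnt5a are known as ligands of the mesenchyme. RNA of whole tissue was measured, so fewer cells of a type and less RNA per cell cannot be told apart in any value below.

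Values are FPKM, fragments scaled by transcript length and by the number of mapped fragments. Relative depth ran from 0.697 to 1.84 times the median library, and 12074 to 13290 genes reached 1 FPKM. Maf, the gene named by the genotype label, measured 2.62 to 7.40 FPKM in the tumors labelled KO and 1.63 to 7.26 FPKM in those labelled WT. In normal tissue it measured 1.52 to 6.27 FPKM under the KO label and 1.37 to 2.82 FPKM under the WT label. The KO label was therefore not matched by a lower Maf level in the whole tissue, and an FPKM over the whole gene does not show whether part of it was deleted or in which cells. For this reason KO and WT stand here for labels. The epithelial markers Epcam and Krt8 were found in every library. In the 12 tumors other than WT-old tumor 1 and KO-8-hetero tumor 2, Epcam measured 596 FPKM or more and Krt8 1626 FPKM or more. Normal tissue held 628.6 and 2297 FPKM or more. WT-old tumor 1 held 418.4 FPKM of Epcam, below every normal library, and 1735 FPKM of Krt8. KO-8-hetero tumor 2 held 642 and 3614 FPKM. Cdx2, another epithelial marker, ran lower in tumors, at 2.95 to 63.0 FPKM in those 12 against 19.7 to 135 FPKM in normal tissue. WT-old tumor 1 and KO-8-hetero tumor 2 stood apart. WT-old tumor 1 held smooth muscle markers (8 genes, summed) at 2913 FPKM, within the 935.8 to 7177 FPKM of normal tissue and above every other tumor, and its Paneth cell marker sum was the lowest of the tumors at 117.5 FPKM. KO-8-hetero tumor 2 held squamous epithelium markers (8 genes, summed) at 10440 FPKM. WT-young tumor 2 came next at 1236 FPKM, and no other tumor exceeded 77.2 FPKM. Xist reached 1 FPKM in 6 libraries, namely KO-1-hetero tumor 3, KO-8-hetero tumor 3 and the 4 normal libraries of those groups, so within both groups normal tissue and most tumors differed in Xist.

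Wnt6 and Wnt10a, whose differences between tumor and normal tissue were the largest of the 7 ligands tested on the log2(FPKM + 1) scale under both genotype labels, lie next to each other on the plus strand of mouse chromosome 1 (GRCm38, 74771892 to 74785322 for Wnt6 and 74791516 to 74804179 for Wnt10a). Their gap is 6193 bp. Wnt3 lies on the plus strand of chromosome 11 from 103774150 to 103817957. The stretches before the starts of Wnt6 and Wnt3 are shown because these ligands were low in every normal library and higher in most tumors. Wnt2, Wnt9a and Wnt11 were also low in normal tissue. Capitals mark CG pairs. Both come from RefSeq's table for GRCm38.p6, in which 8 of the 10 ligands had a window of 250 bases before a start, Wnt10a and Wnt5a having no entry. The last 25 bases of the Wnt3 window lie inside the gene as GENCODE draws it and were left off. Windows of Wnt2b, Wnt4, Wnt2 and Wnt9a also lie in part inside their genes as drawn there. The further windows of Wnt5b and Wnt11 lie wholly inside. Counts below are for whole windows.
Wnt6, chr1:74771642-74771891, plus strand: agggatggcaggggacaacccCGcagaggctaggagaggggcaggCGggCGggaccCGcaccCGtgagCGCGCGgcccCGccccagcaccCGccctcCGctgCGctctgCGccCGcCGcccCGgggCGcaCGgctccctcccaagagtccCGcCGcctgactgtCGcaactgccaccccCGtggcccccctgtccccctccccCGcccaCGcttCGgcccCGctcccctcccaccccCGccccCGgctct
Wnt3, chr11:103773925-103774149, plus strand: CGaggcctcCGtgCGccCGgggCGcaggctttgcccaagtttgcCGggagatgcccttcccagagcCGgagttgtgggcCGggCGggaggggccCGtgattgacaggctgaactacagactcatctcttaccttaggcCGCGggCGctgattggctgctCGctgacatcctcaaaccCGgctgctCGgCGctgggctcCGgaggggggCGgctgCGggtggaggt
Both are rich in CG pairs, with 28 in the Wnt6 window of 250 bases and 22 in the whole Wnt3 window, against a median of 6 over 32841 windows of this length. This was not particular to them. Wnt9a held 48, Wnt4 44, Wnt2b 36 and Wnt2 20, the windows of Wnt11 37 and 16, and those of Wnt5b 35, 7 and 4. G and C made up 79.6% of the Wnt6 window and 68.0% of the Wnt3 window, against a median of 52.4%. The letters CTTTGAA and CTTTGAT (TCF/LEF), TGCTGAC (a Maf half-site) and TGACTCA (AP-1) were searched on both strands. They were held by 4.45%, 3.21%, 3.81% and 4.46% of all windows, and none was in the Wnt6 or the Wnt3 window. Among the other ligands, CTTTGAT was in a window of Wnt5b and a window of Wnt11, and TGACTCA in another window of Wnt5b.

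Tumors and normal tissue differed in which ligand was the most abundant. Over the 14 tumors the mean levels were 10.3 FPKM (SD 6.999) for Wnt6, 9.44 ± 4.54 FPKM for Wnt5a and 8.29 ± 5.93 FPKM for Wnt10a. These 3 could not be ordered beyond their spread, since Wnt6 exceeded Wnt5a in 9 and Wnt5a exceeded Wnt10a in 8 of 14 tumors. Wnt4 (2.39 ± 3.85 FPKM), Wnt2b (2.07 ± 1.12) and Wnt5b (1.83 ± 0.521) formed the next level and also changed places between tumors. Wnt3 followed at 1.01 ± 0.526 FPKM, above Wnt11 in 11 of 14 tumors. Wnt11 (0.330 FPKM), Wnt9a (0.320) and Wnt2 (0.190) were lowest.

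In the 10 normal libraries the order began with Wnt5a at 2.59 ± 0.946 FPKM (SD) and Wnt2b at 2.42 ± 0.797, of which Wnt5a was the higher in 6 of 10. Wnt5b (1.32 ± 0.496 FPKM) and Wnt4 (1.28 ± 0.718) came next, again without separation. Wnt6 stood at 0.476 ± 0.240 FPKM, below Wnt4 in 10 of 10 libraries. Wnt11, Wnt2 and Wnt9a lay between 0.183 and 0.279 FPKM on average, and Wnt10a (0.0698) and Wnt3 (0.0436) were lowest. The sum over all 19 ligand symbols was 5.65 to 15.3 FPKM in normal libraries and 9.73 to 65.9 FPKM in tumors. The highest single ligand was Wnt6 in 8 tumors, Wnt5a in 3, and Wnt10a, Wnt2b and Wnt4 in 1 each. In normal libraries it was Wnt5a in 5, Wnt2b in 4 and Wnt5b in 1.

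**Figure D1:**
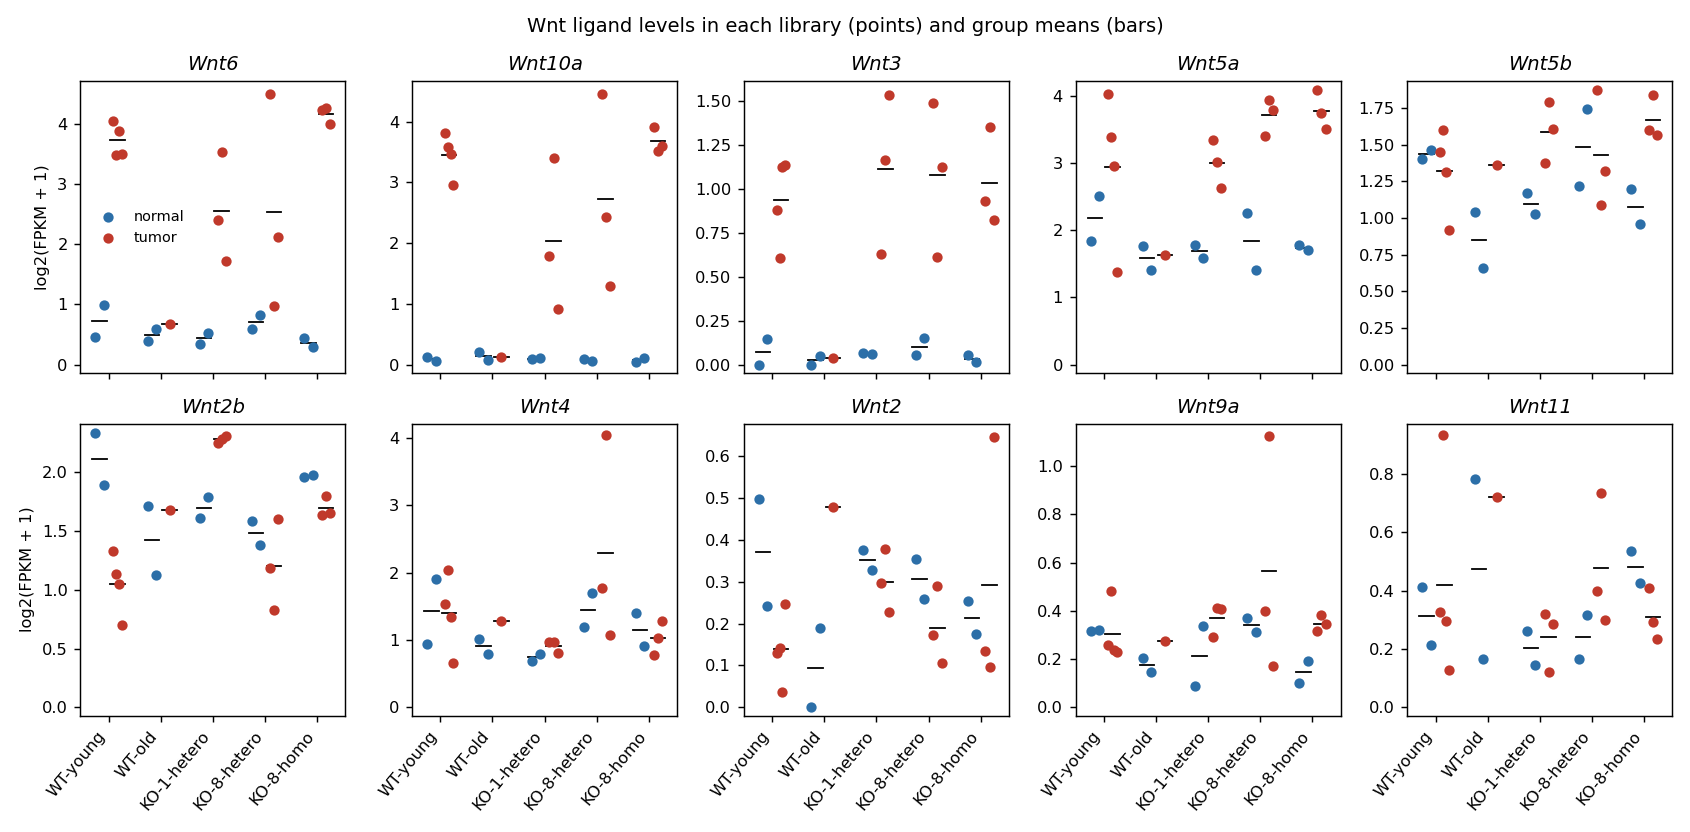
Level of each of the 10 Wnt ligands as log2(FPKM + 1) (y axis, scaled per panel) by title group (x axis); each point is 1 library, red for tumor and blue for normal, and black bars are group means of the log values. Wnt10a and Wnt3 are above every normal library in all tumors but the single WT-old tumor, Wnt6 in all but that tumor and KO-8-hetero tumor 2, while Wnt2, Wnt9a and Wnt11 stay low in both tissues.

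Wnt6, a ligand of the beta-catenin branch, was low in normal tissue and high in most tumors. The 4 WT-young tumors measured 15.6, 10.2, 13.8 and 10.3 FPKM, and the only WT-old tumor measured 0.591 FPKM. The KO-1-hetero tumors gave 4.28, 10.55 and 2.31 FPKM, the KO-8-hetero tumors 21.6, 0.967 and 3.35, and the KO-8-homo tumors 17.7, 18.2 and 14.96. Normal libraries lay between 0.219 and 0.993 FPKM, so that 12 of 14 tumors exceeded every normal library. The exceptions were WT-old tumor 1 and KO-8-hetero tumor 2, both inside the normal range. The 3 KO-8-homo tumors and the 4 WT-young tumors were close to one another, while the hetero groups each held tumors of very different level.

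Wnt10a, the neighbouring gene and also a ligand of the beta-catenin branch, was almost absent from normal tissue at 0.0321 to 0.155 FPKM. In the WT-young tumors it measured 13, 10.9, 10.1 and 6.79 FPKM, and WT-old tumor 1 was at 0.0917 FPKM. The KO-1-hetero tumors gave 2.45, 9.58 and 0.894 FPKM, the KO-8-hetero tumors 20.8, 4.38 and 1.45, and the KO-8-homo tumors 14.04, 10.5 and 11.1. All tumors but WT-old tumor 1, 13 of 14, exceeded every normal library.

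Wnt3, the Paneth cell ligand, reached lower levels with the same separation from normal tissue. It measured 0.836, 0.522, 1.18 and 1.20 FPKM in the WT-young tumors, 0.0279 in the WT-old tumor, 0.547, 1.24 and 1.90 in the KO-1-hetero tumors, 1.80, 0.531 and 1.18 in the KO-8-hetero tumors and 0.904, 1.55 and 0.767 in the KO-8-homo tumors. Normal libraries were listed at 0 to 0.111 FPKM, and 13 of 14 tumors lay above them. Lyz1, the lysozyme of Paneth cells, measured 16.1 to 51.0 FPKM in normal libraries, 373 to 2519 FPKM in the 12 tumors other than the 2 that stood apart, 263 FPKM in KO-8-hetero tumor 2 and 107 FPKM in WT-old tumor 1. Wnt3 and Lyz1 were thus both lowest in the WT-old tumor among the tumors, and the part of Paneth cells in the level of Wnt3 was not tested.

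Wnt5a, the main ligand of the branch that does not run through beta-catenin, was present in normal tissue at 1.65 to 4.68 FPKM. Values of 15.3, 9.50, 6.76 and 1.59 FPKM were found in WT-young tumors, and WT-old tumor 1 was at 2.11 FPKM. In the KO-1-hetero tumors it was 9.14, 7.07 and 5.17 FPKM, in the KO-8-hetero tumors 9.58, 14.4 and 12.8, and in the KO-8-homo tumors 15.9, 12.4 and 10.4. All 9 KO tumors and 3 of 5 WT tumors lay above every normal library, and WT-young tumor 4 lay below all of them. That tumor also had the lowest fibroblast marker sum of the tumors (10 genes, 376.3 FPKM against 661.5 to 1371 FPKM in the KO tumors), and the part of this in its Wnt5a level was not tested. Wnt5b, the close relative of Wnt5a, measured 0.889 to 2.66 FPKM in tumors and 0.577 to 2.35 FPKM in normal libraries. Within KO-8-homo (1.96 to 2.58 against 0.941 to 1.30 FPKM) and KO-1-hetero (1.60 to 2.46 against 1.04 to 1.25 FPKM) the tissues did not overlap, and neither difference passed the test described below.

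Wnt2b, a mesenchymal ligand of the beta-catenin branch, was the only member called between title groups of tumors in the tests below. The KO-1-hetero tumors were alike at 3.76, 3.87 and 3.96 FPKM. The WT-young tumors measured 1.51, 1.19, 1.07 and 0.624 FPKM, the WT-old tumor 2.203, the KO-8-hetero tumors 1.27, 0.776 and 2.03, and the KO-8-homo tumors 2.12, 2.48 and 2.15. Normal tissue ran from 1.18 to 4.04 FPKM, with both extremes under the WT label (4.04 and 2.72 FPKM in WT-young, 2.29 and 1.18 FPKM in WT-old). No tumor lay above all normal libraries, and 3 lay below them. The KO-1-hetero tumors were the highest of all tumors for this ligand without overlap. They also lay above their own normal tissue (2.05 and 2.46 FPKM), a difference that did not pass (0.58, limma adjusted p 0.0880).

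Wnt4, which can signal through either branch, stood at 15.5 FPKM in KO-8-hetero tumor 2 and at 0.581 to 3.10 FPKM in the other 13 tumors, the highest of which was WT-young tumor 2. Normal libraries measured 0.619 to 2.77 FPKM. The 2 tumors with the most Wnt4 were the 2 with the most squamous marker RNA. Wnt9a was likewise highest in KO-8-hetero tumor 2 (1.18 FPKM) and next in WT-young tumor 2 (0.396 FPKM). Wnt11, another ligand of the branch outside beta-catenin, was highest in WT-young tumor 2 (0.908 FPKM), followed by WT-old normal 1 (0.719), KO-8-hetero tumor 2 (0.662) and the WT-old tumor (0.648), and Wnt2 did not exceed 0.565 FPKM in any library. The part of the squamous cells in these levels was not tested.

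For tests, limma was applied to log2(FPKM + 1) of the 13799 genes with at least 1 FPKM in at least 4 libraries, and a gene was called at a Benjamini-Hochberg adjusted p under 0.05 over all of them. Of the 10 ligands, 7 passed this filter, and Wnt2, Wnt9a and Wnt11 did not. Without the filter these 3 were not called in any of the 14 comparisons. Wnt6, Wnt10a and Wnt3 did not reach 1 FPKM in any normal library and so entered the tests through tumors alone. Their tumor minus normal test values and the counts of members called are therefore given as descriptions. Differences are on the log2(FPKM + 1) scale, which understates changes of low genes. Shares of all genes below count genes called at the adjusted threshold. No share of all genes at an unadjusted p under 0.05 is given, so counts at that level have no background beside them. Nor is a share of all genes without overlap given, and groups this small can separate by accident.

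With the WT label, tumors (n = 5) exceeded normal tissue (n = 4) in 3 of the 7 ligands tested and were lower in 0. Of all genes tested, 15.5% were called higher and 14.8% lower, 30.4% in all. Wnt10a rose by 2.67 on the log2 scale (SE 0.65, adjusted p 0.00433), Wnt6 by 2.51 (SE 0.65, adjusted p 0.00645) and Wnt3 by 0.71 (SE 0.21, adjusted p 0.0127). Wnt5a differed by 0.80 (SE 0.40, adjusted p 0.131) and Wnt2b by -0.59 (SE 0.28, adjusted p 0.105). Single libraries decided both of these. Wnt5a passed without WT-young tumor 4 (1.12, adjusted p 0.0254) or without WT-old tumor 1 (1.06, adjusted p 0.0433), and Wnt2b passed as lower without WT-old normal 2 (-0.80, adjusted p 0.0390). With WT-old tumor 1 and KO-8-hetero tumor 2 left out, 5 ligands passed, Wnt5a and Wnt2b among them.

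With the KO label, tumors (n = 9) exceeded normal tissue (n = 6) in 4 of the 7 and were lower in 0, against 24.1% of all genes higher and 23.2% lower (47.2% in all). Wnt10a rose by 2.73 (SE 0.51, adjusted p 0.000226), Wnt6 by 2.58 (SE 0.51, adjusted p 0.000376), Wnt5a by 1.74 (SE 0.31, adjusted p 0.000145) and Wnt3 by 1.00 (SE 0.16, adjusted p 4.54e-05). For each of these 4 the KO tumors and the KO normal libraries did not overlap, which is a description without a share of all genes beside it. Wnt5b differed by 0.34 (SE 0.15, adjusted p 0.0661) and passed without KO-8-hetero tumor 2 (0.40, adjusted p 0.0289) or without KO-8-hetero normal 2 (0.45, adjusted p 0.0172). Wnt4 (0.30, SE 0.37) and Wnt2b (0.01, SE 0.22) did not pass.

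Whether the step from normal tissue to tumor differed between the labels was tested as an interaction, and 0 of the 7 ligands and 0% of all genes were called by limma, with 0 of the 7 also at an unadjusted p under 0.05. The step was larger with the KO label by 0.95 for Wnt5a (SE 0.51, adjusted p 0.986), so that a call under one label and not the other did not amount to a measured difference.

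**Figure D2:**
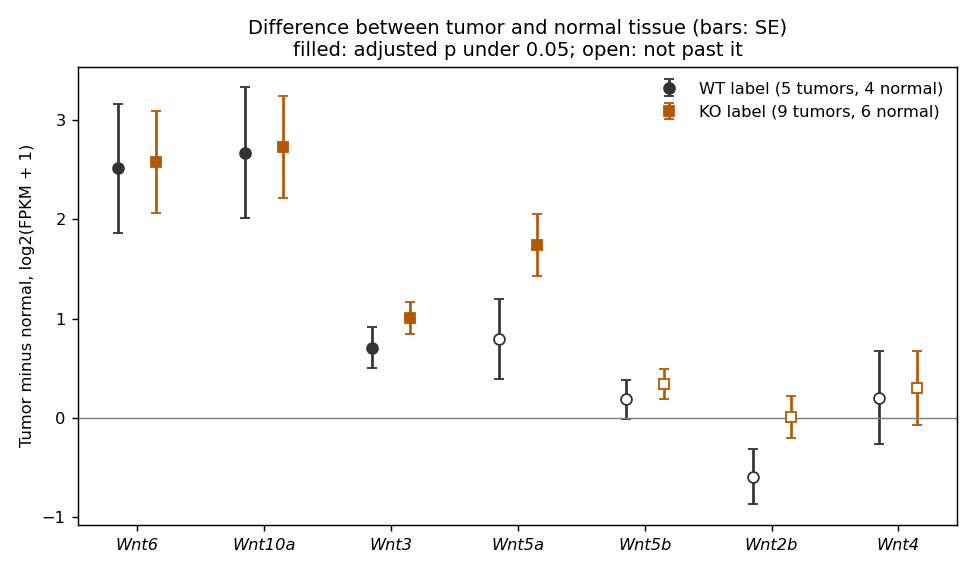
Tumor minus normal difference on the log2(FPKM + 1) scale (y axis) for the 7 ligands tested (x axis), as circles for the WT label (5 tumors, 4 normal) and squares for the KO label (9 tumors, 6 normal); bars are standard errors and filled symbols passed the threshold. Wnt6 and Wnt10a differ by more than 2.5 under both labels, Wnt5a passes under the KO label only, and Wnt5b, Wnt2b and Wnt4 pass under neither.

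Title groups were also tested one by one. WT-young tumors (n = 4) exceeded WT-young normal tissue (n = 2) in Wnt10a (3.36, SE 0.63, adjusted p 0.00123), Wnt6 (3.01, SE 0.62, adjusted p 0.00251) and Wnt3 (0.86, SE 0.25, adjusted p 0.0187). In that group Wnt2b fell by 1.06 (SE 0.21, adjusted p 0.00203), from 3.38 ± 0.934 to 1.10 ± 0.366 FPKM. That made 3 of 7 higher and 1 of 7 lower, beside 13.7% and 12.5% of all genes (26.1% in all). Wnt3 did not pass when either WT-young normal library was left out, and Wnt5a passed in addition without WT-young tumor 4. KO-8-homo tumors (n = 3) exceeded their normal tissue (n = 2) in 4 of 7 and were lower in 0, beside 11.8% of all genes higher and 11.2% lower (23% in all), with 3.80 for Wnt6 (SE 0.65, adjusted p 0.00128), 3.60 for Wnt10a (SE 0.66, adjusted p 0.00189), 2.04 for Wnt5a (SE 0.50, adjusted p 0.00984) and 1.00 for Wnt3 (SE 0.26, adjusted p 0.0135). When either KO-8-homo normal library was left out, 2 passed, Wnt6 and Wnt10a.

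KO-8-hetero tumors were higher in 4 of 7 ligands, beside 21.9% of all genes higher and 21.2% lower (43.1% in all), by 2.65 for Wnt10a (adjusted p 0.00473), 1.88 for Wnt5a (adjusted p 0.00737), 1.82 for Wnt6 (adjusted p 0.0338) and 0.97 for Wnt3 (adjusted p 0.00765). With a term for Xist 2 of these passed, with the compared groups alone 1, and without KO-8-hetero normal 2 again 2 (Wnt3 and Wnt10a). In KO-1-hetero tumors, higher levels were called for Wnt3 (1.04, adjusted p 0.0185) and Wnt6 (2.12, adjusted p 0.0407), 2 of 7 higher and 0 lower beside 6.93% and 7.2% of all genes (14.1% in all), and Wnt10a differed by 1.94 (adjusted p 0.0584). The KO-1-hetero count ran from 0 to 4 over the alternatives tried, and it was 0 when either of its normal libraries was left out and 1 without KO-1-hetero tumor 1 or tumor 2. The WT-old group had 1 tumor and was not tested alone.

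Across genotype labels, no ligand was called in tumors. In tumors, KO (n = 9) minus WT (n = 5) gave 0 of 7 ligands by limma, beside 0.00725% of all genes (1 gene, Fzd1), and 2 of 7 had an unadjusted p under 0.05. These were Wnt5a (0.82, SE 0.33, adjusted p 0.510), with 10.8 ± 3.46 FPKM against 7.04 ± 5.65, and Wnt2b (0.55, SE 0.23, adjusted p 0.522), with 2.49 ± 1.15 FPKM against 1.32 ± 0.587. Wnt6 differed by -0.04 (SE 0.54) and Wnt10a by 0.02 (SE 0.54), and both values rested on WT-old tumor 1. Without that tumor they were -0.65 and -0.64, again not called, and over all left-out libraries they ran from -0.65 to 0.23 and from -0.64 to 0.28. In normal tissue, KO minus WT gave 0 of 7 ligands by limma beside 0% of all genes, and 0 of 7 at an unadjusted p under 0.05, with differences from -0.13 (Wnt5a) to 0.08 (Wnt5b).

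Single KO groups were set against the WT-young tumors, and all 3 comparisons share those 4 control libraries. KO-1-hetero minus WT-young gave 1 of 7 ligands higher and 0 lower, beside 1.63% of all genes higher and 1.25% lower (2.88% in all). This was Wnt2b, at 3.86 ± 0.0989 FPKM (SD, n = 3) against 1.10 ± 0.366 (SD, n = 4), a rise of 1.23 on the log2 scale (SE 0.19, adjusted p 0.00782) with no overlap. The Wnt2b call held in 18 of 18 alternatives, with differences from 1.11 to 1.78 and adjusted p from 0.00398 to 0.0456. Wnt10a (-1.42, SE 0.55, adjusted p 0.173) and Wnt6 (-1.18, SE 0.55, adjusted p 0.250) had lower means in KO-1-hetero and did not pass, although Wnt10a passed when KO-1-hetero tumor 2 was left out. Cell type markers moved with this comparison. All 8 smooth muscle genes had an unadjusted p under 0.05 and 2 were called higher in KO-1-hetero, and their sum was 715.8 to 1086 FPKM there against 177.8 to 378.3 FPKM in WT-young tumors. Of 5 B cell genes, 4 were called higher, with sums of 38.3 to 122.5 FPKM against 2.85 to 17.7 FPKM. Of 10 fibroblast genes 0 were called (1 at an unadjusted p under 0.05, limma), with sums of 661.5 to 821.3 FPKM against 376.3 to 1063 FPKM. The part of these cells in the Wnt2b difference was not tested. Maf was higher in KO-1-hetero than in WT-young tumors in the same fit (1.12, SE 0.22, adjusted p 0.0172).

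KO-8-hetero minus WT-young gave 0 of 7 by limma beside 0.00725% of all genes, with 1 of 7, Wnt6 (-1.20, SE 0.55, adjusted p 0.705), at an unadjusted p under 0.05. Without KO-8-hetero tumor 1, the tumor with the most Wnt6, Wnt6 passed. KO-8-homo minus WT-young gave 0 of 7 by limma beside 0.457% of all genes (0.058% higher, 0.399% lower), with 1 of 7, Wnt2b (0.65, SE 0.19, adjusted p 0.182), at an unadjusted p under 0.05. Those KO-8-homo tumors (2.12 to 2.48 FPKM) did not overlap the WT-young tumors (0.624 to 1.51 FPKM) in Wnt2b.

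Between KO groups, KO-8-homo minus KO-8-hetero tumors gave 0 of 7 by limma beside 0.0507% of all genes, with 3 of 7 at an unadjusted p under 0.05, namely Wnt6 (1.63, SE 0.59, adjusted p 0.668, passing without KO-8-hetero tumor 1), Wnt4 (-1.27, SE 0.52, adjusted p 0.780) and Wnt2b (0.49, SE 0.20, adjusted p 0.780). KO-1-hetero minus KO-8-hetero tumors gave 0 of 7 by limma beside 0% of all genes, with 2 of 7 at an unadjusted p under 0.05. Of these, Wnt2b differed by 1.08 (SE 0.20, adjusted p 0.0955) without overlap and passed when KO-8-hetero tumor 3 was left out. Wnt4 differed by -1.38 (SE 0.52, adjusted p 0.361), also without overlap. Wnt5a (-0.72, SE 0.45, adjusted p 0.651) did not overlap either, at 5.17 to 9.145 against 9.58 to 14.4 FPKM.

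**Figure D3:**
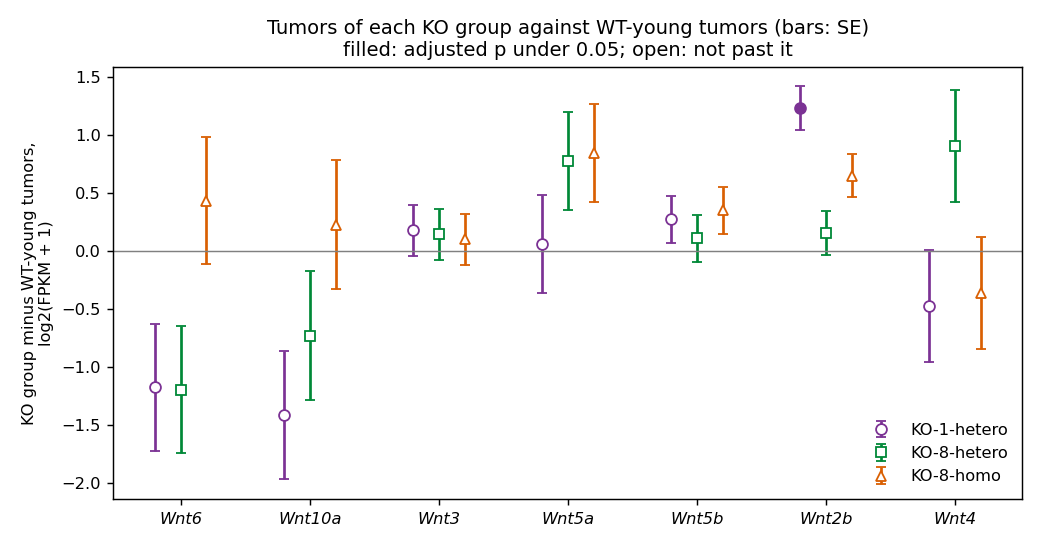
Difference of the tumors of each KO title group (3 each) from the 4 WT-young tumors on the log2(FPKM + 1) scale (y axis) for the 7 ligands tested (x axis); bars are standard errors and the filled symbol passed the threshold. Wnt2b in KO-1-hetero, at 1.23, is the single filled point, and the points for Wnt6 and Wnt10a lie below 0 in both hetero groups and above 0 in KO-8-homo.

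Wnt6 and Wnt10a varied together from tumor to tumor. Over the 14 tumors Pearson's r of log2(FPKM + 1) was 0.900 (permutation p 7e-05) and Spearman's rho 0.890 (permutation p 8e-05), for the 1 pair of ligands examined in this way. Leaving out WT-old tumor 1 and KO-8-hetero tumor 2, the farthest from the median of Wnt6, r was 0.976 (permutation p 1e-05, the smallest that the resamples can give) and rho 0.867 (permutation p 0.0005). The permutations exchanged tumors across title groups. Over the same 14 tumors other genes had a higher Pearson's r, among them Chrnb1 with Wnt6 (0.983) and Maged2 with Wnt10a (0.975). A close relation was therefore not particular to this pair. Wnt6 exceeded Wnt10a in 12 of 14 tumors and in 10 of 10 normal libraries. KO-8-hetero tumor 2 broke the pattern with 4.38 FPKM of Wnt10a and 0.967 FPKM of Wnt6.

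**Figure D4:**
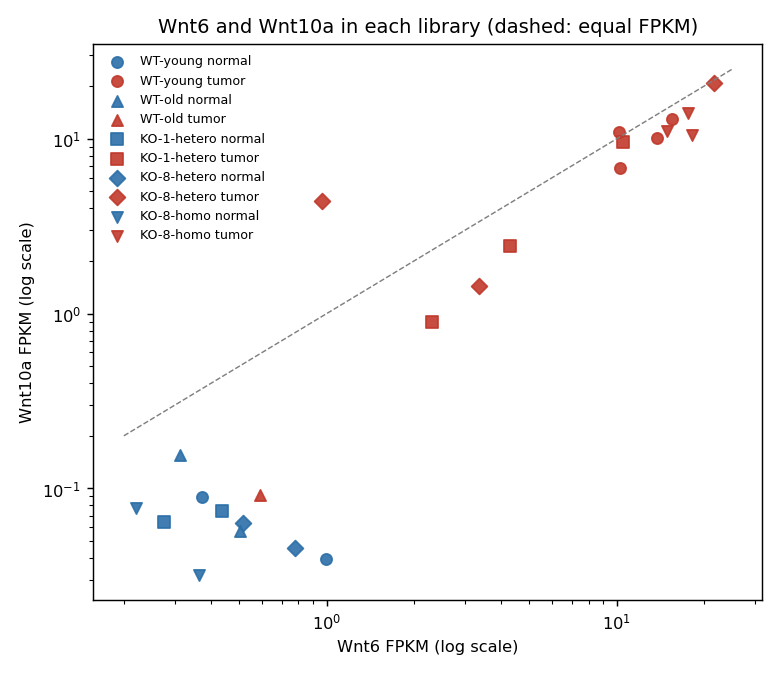
Wnt6 (x axis) against Wnt10a (y axis), both in FPKM on log scales, 1 point per library with the shape for the title group, red for tumor and blue for normal; the dashed line marks equal values. Most tumors lie near the line at the upper right, the WT-old tumor lies among the normal libraries, and KO-8-hetero tumor 2 lies above the line.

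The genes whose tumor pattern was most like that of a ligand are named as a description, since they were picked as the highest of all genes tested over the same 14 tumors. For Wnt6 these were Chrnb1 (r 0.983), Sp5 (0.981) and Pisd (0.979), of which Sp5 is a target of beta-catenin signalling. For Wnt10a they were Maged2 (0.975), LOC105245869 (0.971) and Gpc1 (0.969), the last a glypican. Bmper (0.934), Srpx2 (0.933) and Lox (0.930), an enzyme that crosslinks collagen, came first for Wnt5a. Wnt3 had weaker partners, Habp2 (0.843), Slc1a4 (0.842) and Lztr1 (0.827).

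Counts of the other gene lists are to be set beside the shares of all genes called, which were 15.5% higher and 14.8% lower under the WT label and 24.1% higher and 23.2% lower under the KO label. A listed gene below 1 FPKM in every normal library could enter the tests through tumors alone, so these counts are descriptions. Wls, the carrier that exports the ligands, measured 64.4 ± 10.7 FPKM in KO tumors and 55.2 ± 6.12 in KO normal tissue (0.21, SE 0.13, adjusted p 0.180), and 65.0 ± 13.3 and 57.7 ± 8.93 FPKM under the WT label. Porcn, the acyltransferase, was 3.42 ± 3.05 and 2.96 ± 0.630 FPKM under the KO label, its highest tumor being KO-8-hetero tumor 2 at 11.5 FPKM. Of 8 processing and secretion genes tested, 1 rose under each label. That gene was Notum, the enzyme that removes the lipid from Wnt ligands and is itself a target of the pathway, with 71.1 ± 51.0 against 0.367 ± 0.116 FPKM under the KO label (5.25, SE 0.71, adjusted p 7.71e-06) and 51.6 ± 29.9 against 0.227 ± 0.0228 under the WT label (4.58, SE 0.91, adjusted p 0.000892). Notum did not exceed 0.510 FPKM in any normal library, so it entered the tests through tumors alone. Gpc3 fell by 1.17 under the KO label (adjusted p 0.0455), and no other gene of the list passed there.

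Among 15 receptors and co-receptors tested, 1 was higher and 3 were lower in WT tumors, and 4 were higher and 2 lower in KO tumors. These counts are near the shares over all genes. Ptk7, a co-receptor of the planar polarity branch, rose under both labels, by 1.14 (WT, adjusted p 0.0223) and 1.38 (KO, adjusted p 0.00062). Fzd8 fell under both, by 0.81 (adjusted p 0.000563) and by 0.76 (adjusted p 3.57e-05). Fzd1 measured 12.4 ± 1.71 FPKM in KO tumors against 7.15 ± 1.24 in WT tumors (0.72, SE 0.12, adjusted p 0.0465) with no overlap. This was the 1 gene called between the labels in tumors, and in 18 of 25 alternatives no gene was called there.

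Feedback genes and targets of the beta-catenin branch rose in larger numbers. Of 17 beta-catenin target genes, 11 were higher and 0 lower in WT tumors, and 14 were higher and 0 lower in KO tumors. At least Lef1 among them entered the tests through tumors alone, with 0.4995 FPKM at most in normal tissue, so the counts are descriptions. The median differences were 1.40 and 1.65, beside 0.02 for all genes under each label. Lef1, a factor of the pathway, rose by 2.01 (WT) and 1.89 (KO), Ccnd1, a cyclin, by 0.97 and 1.38, and Myc by 0.54 and 1.12. In the R-spondin arm, 4 of 6 genes were higher under each label and 1 was lower under the KO label. Lgr5, a stem cell receptor of R-spondins, rose by 1.93 and 2.69, and Rnf43 and Znrf3, ligases that remove Frizzled receptors, rose by 1.33 and 1.12 (WT) and by 1.87 and 1.35 (KO).

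Of 9 secreted antagonists tested, 3 were higher in WT tumors and 4 in KO tumors, with 0 lower. Wif1, which binds Wnt ligands directly, reached 134 ± 81.0 FPKM in WT tumors and 125 ± 76.3 in KO tumors, against 0.9996 ± 0.298 and 1.33 ± 0.439 in normal tissue. The differences were 5.25 (adjusted p 0.000152) and 5.47 (adjusted p 2.11e-06). Dkk2, which blocks the Lrp co-receptors, rose by 2.78 (WT) and 2.79 (KO). Of 12 planar polarity and related genes, 1 rose in WT tumors and 4 in KO tumors, among them Vangl2 by 1.41 (WT) and 1.63 (KO), beside 15.5% and 24.1% of all genes called higher.

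**Figure D5:**
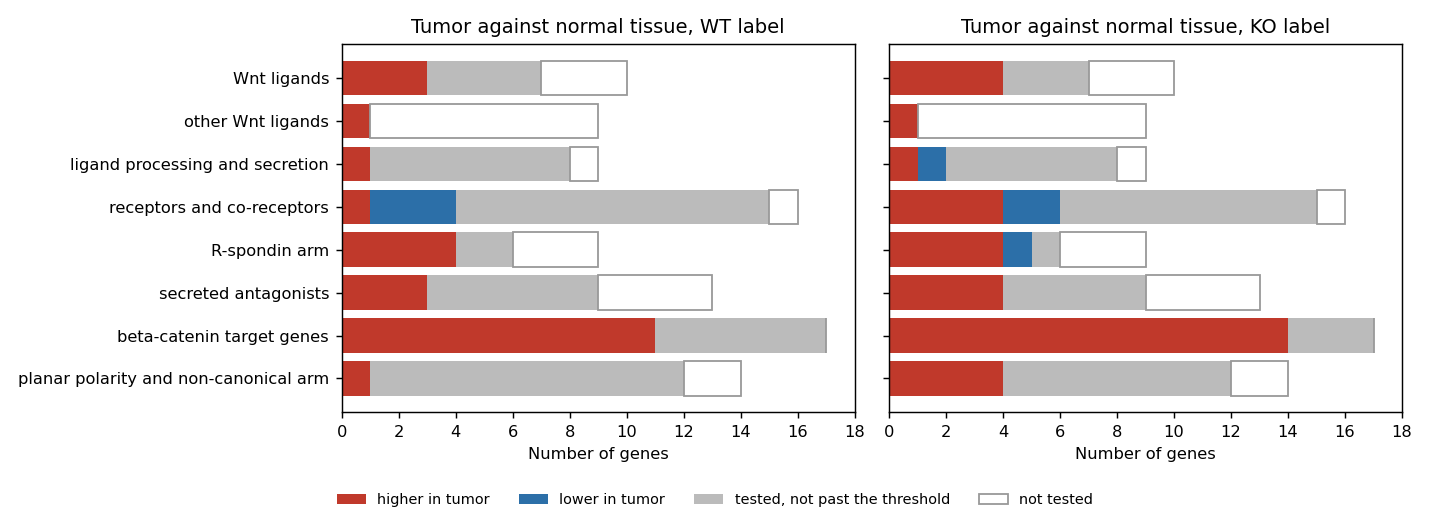
Number of genes (x axis) of each Wnt pathway list (y axis) that were higher in tumor (red), lower in tumor (blue), tested without passing the threshold (grey) or not tested (white), for the WT label (left) and the KO label (right). The beta-catenin target genes show 11 and 14 of 17 higher and 0 lower, while the receptors are split between higher and lower.

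Axin2, Sp5, Nkd1, Notum and Lef1 in the 2 tumors that stood apart lay below the other 12 tumors, with the exception of Lef1 in WT-old tumor 1. Other target genes, Ccnd1 and Myc among them, are not given here tumor by tumor. In WT-old tumor 1, Axin2 (3.96 FPKM), Sp5 (0.0994), Nkd1 (2.40) and Notum (0.222) were within or below the range of normal tissue (4.70 to 8.76, 0.0353 to 0.462, 1.10 to 5.35 and 0.188 to 0.510 FPKM), although Lef1 (1.97 FPKM) was above its range (0.0301 to 0.4995 FPKM). In KO-8-hetero tumor 2, Axin2 was 7.62 FPKM, within the normal range, while Notum (8.23 FPKM), Sp5 (1.18), Lef1 (0.691) and Nkd1 (5.90) were above it. The other 12 tumors measured 14.1 to 94.7 FPKM for Axin2, 17.9 to 148 for Notum, 1.504 to 15.9 for Sp5, 1.61 to 7.84 for Lef1 and 13.4 to 86.5 for Nkd1. In KO-8-hetero tumor 2 the keratins of squamous epithelium were at 3230 FPKM (Krt13), 3173 (Krt14), 1462 (Krt6a) and 1163 (Krt5). In WT-young tumor 2 they were at 140, 579, 190 and 250 FPKM, and there Wnt6 (10.2 FPKM) and Wnt10a (10.9 FPKM) kept the level of the other WT-young tumors.

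Cell type markers moved with the step from normal tissue to tumor, and their part in the ligand results was not tested. Beside their counts stand 15.5% of all genes higher and 14.8% lower in WT tumors, and 24.1% higher and 23.2% lower in KO tumors. All 8 smooth muscle genes fell under both labels, and their sum was 177.8 to 2913 FPKM in tumors (median 523.7) against 935.8 to 7177 in normal libraries (median 3020). Cnn1, for example, fell by 3.55 (WT) and 2.96 (KO). Of 10 fibroblast genes, 1 rose in WT tumors, and 7 rose and 2 fell in KO tumors, with summed levels of 376.3 to 1371 FPKM in tumors and 279.6 to 763.1 in normal libraries. Of 6 Paneth cell genes, 5 rose in WT and 4 in KO tumors, with summed levels of 117.5 to 7748 FPKM in tumors and 32.3 to 2949 in normal libraries. Of 9 epithelial genes, 1 fell in WT and 3 fell in KO tumors, near the shares over all genes, and 5 of 7 macrophage genes rose under each label, 1 falling under the WT label. Of 5 neutrophil genes, 4 rose in WT and 5 in KO tumors. Of 7 genes of telocytes and crypt-base mesenchyme, known sources of Wnt ligands in the gut wall, 1 rose and 1 fell in WT tumors, and 3 rose and 1 fell in KO tumors, among them Foxl1 (1.36 in WT and 1.25 in KO tumors). No B cell gene of 5 passed under either label, and of 5 T cell and 5 endothelial genes 1 and 2 rose in KO tumors and 0 in WT tumors.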

How the data were processed

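The 24 libraries of colorectal tissue were made from total RNA (miRNeasy Mini) with the TruSeq Stranded mRNA kit, per the labels' protocols. The authors deposited 1 table of FPKM values per library, with gene symbols, per the file headers. The submitters' processing notes name TopHat2 2.1.1, Bowtie2 2.2.8, SAMtools 0.1.18, Cuffdiff 2.2.1 and the build mm10, without their roles; the annotation is not given in the sources used here. FPKM are not counts, so fragment totals are unknown, no counting interval was computed, and relative depth was estimated from the most frequent ratio of low values. No pair of tables was identical, and 8 housekeeping genes were listed at 0 in none.

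Groups follow the titles and genotype labels. The labels do not say whether libraries come from separate animals, so p-values measure only the spread between these samples. limma 3.58.1 (R 4.3.3) was fitted to log2(FPKM + 1) with an intensity trend, two-sided, for genes with at least 1 FPKM in at least 4 of 24 libraries (13799 genes). One model held the 4 combinations of genotype label and tissue, another the 10 title groups by tissue, and all 24 libraries entered each. P-values were adjusted by Benjamini-Hochberg over all genes, with a threshold of 0.05. Correlations used 100000 permutations (scipy 1.17.1, numpy 2.4.6, pandas 2.3.3, Python 3.11.15). Simulated data with known changes were used to test the models before use.

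The ligands and gene lists were chosen with earlier results of these data known. All 10 ligands are named. Of each other list, up to 3 genes with the smallest p in tumor minus normal (KO label) among those past the threshold are named, as well as defining markers, Maf, and the 3 genes most correlated with each of the 4 ligands that changed most. Wls, Porcn and Axin2 were named for their role, and Nkd1 was named outside these rules. Alternatives were another pseudocount (0.1), no filter, a filter on the mean, median-of-ratios scaling, quantile normalization, the compared groups alone, no WT-old libraries, a term for Xist, a replicate block, and leaving out each replicate. Positions are from GENCODE on GRCm38.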

Additional observations from a re-analysis of the deposited data

Results flagged for a closer look

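Of 50 groups of values examined, 8 held a library whose gap to its nearest neighbour was large against the whole range of the group. Chance gives about 1 in 20 for separate groups of like samples. That rate does not carry over here. The WT tumors include the WT-young tumors, so groups overlapped, and groups by genotype label mixed title groups. Among the 9 KO tumors, KO-8-hetero tumor 2 stood alone at the top in Wnt4 (15.53 FPKM), Wnt9a (1.182 FPKM) and Wnt11 (0.6623 FPKM). This is the tumor with the highest squamous marker sum. Among the 5 WT tumors, WT-old tumor 1 stood alone at the bottom in Wnt6 (0.5913 FPKM) and Wnt10a (0.09171 FPKM). Wnt9a at 0.396 FPKM set WT-young tumor 2 above the other WT-young tumors and above the other WT tumors. Among the 6 KO normal libraries, KO-8-hetero normal 2 was highest in Wnt5b at 2.353 FPKM. Wnt9a and Wnt11 are low genes whose precision at this depth is unknown.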

How the results depend on the processing

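Of 736 values of single ligands under other settings, 644 kept their direction and their side of the threshold, 37 no longer passed, 11 newly passed and 44 changed sign. Of 279 counts of ligands called, 257 stayed within 1.5 times the reported count. Wnt10a under the WT label, and Wnt6, Wnt10a, Wnt3 and Wnt5a under the KO label, passed in tumor minus normal under every setting in which they were tested. For Wnt6, Wnt10a and Wnt3, which entered the main tests through tumors alone, this is a description. The cause of the changes below was not tested. Leaving out WT-old tumor 1 with KO-8-hetero tumor 2, or KO-8-hetero tumor 2 with WT-young tumor 2, was chosen after seeing the data.

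The tumor minus normal count with the WT label (3) became 5 without WT-old tumor 1 and KO-8-hetero tumor 2. The KO-1-hetero count (2) became 1 without a filter, 1 with a filter on the mean, 0 after quantile normalization, 4 with the compared groups alone, 1 with a term for Xist, and 0 to 2 with a replicate left out. The KO-8-hetero count (4) became 1 with the compared groups alone, 2 with the term for Xist, and 2 to 5 with a replicate left out, and the KO-8-homo count (4) became 2 to 4. In tumors, leaving out a replicate gave 1 to 2 ligands for KO-1-hetero minus WT-young (1), and 0 to 1 for KO-8-hetero minus WT-young, KO-8-homo minus KO-8-hetero and KO-1-hetero minus KO-8-hetero (0 each).

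The replicate block used the numbers of the labels. Over 8 pairs of same-numbered tumor and normal libraries the correlation of deviations was -0.159 to 0.355, and 1 pair exceeded 0.1, so the samples were not treated as paired. With 2 normal libraries a group their deviations mirror each other, and this check does not show that no pairing exists. With the block, the tumor minus normal count was 1 for the WT label (Wnt10a, while Wnt6 and Wnt3 no longer passed) and 1 for KO-1-hetero, and the count for KO-1-hetero minus KO-8-hetero was 1. The block also turned Wnt2b in tumor minus normal with the KO label (-0.0523), Wnt4 in KO minus WT tumors (-0.15) and Wnt6 there (0.0687).

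Other sign changes were of small, uncalled differences. Without the WT-old libraries, tumor minus normal with the WT label was -0.0302 for Wnt4 and -0.11 for Wnt5b. With the KO label, Wnt2b (0.01) became -0.0249 with a pseudocount of 0.1, -0.0001 with median-of-ratios scaling, -0.22 after quantile normalization and -0.0619 to 0.12 with a replicate left out. Wnt4 (0.30) became -0.0262 in each setting without KO-8-hetero tumor 2 and 1 other tumor, and -0.0262 to 0.42 with a replicate left out. In KO minus WT tumors, Wnt4 (0.04) was -0.0223 with a pseudocount of 0.1, -0.0156 after quantile normalization, -0.31 without WT-old tumor 1 and KO-8-hetero tumor 2, -0.12 without both squamous tumors, and -0.29 to 0.21 with a replicate left out. Wnt6 (-0.04) was 0.0262 with a pseudocount of 0.1, 0.12 with the term for Xist, 0.32 without both squamous tumors and -0.65 to 0.23 with a replicate left out. Wnt10a (0.02) was -0.0038 after quantile normalization, -0.64 without WT-old, -0.59 without WT-old tumor 1 and KO-8-hetero tumor 2, and -0.64 to 0.28 with a replicate left out. The interaction has no fit on the compared groups alone, because it uses all libraries.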

Other observations

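Other Wnt ligand symbols were low, and 1 of 9, Wnt16, was high enough to be tested. In no normal library did Wnt16 exceed 0.2375 FPKM, so it entered the tests through tumors alone and its test values are given as a description. Wnt16 measured 1.78 ± 1.33 FPKM in WT tumors against 0.113 ± 0.0999 in WT normal tissue (1.16 on the log2 scale, SE 0.38, limma adjusted p 0.0232), and 1.33 ± 1.20 against 0.0683 ± 0.0416 under the KO label (0.96, SE 0.30, adjusted p 0.0113). It was highest in KO-8-hetero tumor 1 (3.62 FPKM) and WT-young tumor 2 (3.54 FPKM), and at 0.166 to 0.234 FPKM in the 3 KO-1-hetero tumors. Wnt7b stood at 7.09 FPKM in KO-8-hetero tumor 2 and 1.57 FPKM in WT-young tumor 2, the 2 tumors with squamous keratins, and did not exceed 0.590 FPKM elsewhere. Wnt3a was listed above 0 in those 2 libraries alone (0.303 and 0.0345 FPKM).

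Wnt8b had its highest values in normal tissue, with 1.29 FPKM in KO-8-hetero normal 1 and 0.945 FPKM in KO-8-hetero normal 2, 1.32 FPKM in WT-young normal 2 and 0.394 FPKM in WT-old normal 2. It did not exceed 0.208 FPKM in any tumor.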
